A study of Homo sapiens with 6 samples.

Results

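This account concerns 3 genes of growth control, BTG2, TP53INP1 and MYCL, out of 753 genes in the table the authors deposited. The cells are AsPC-1, an established human pancreatic cancer line. In the control group, 3 samples received a control lentivirus. In the knockdown group, 3 samples received a lentivirus encoding a short hairpin RNA (shTMPRSS4) against TMPRSS4, a membrane-bound serine protease, and both groups thus went through lentiviral transduction. The labels do not say whether a group is 1 clone or a pool, or whether its samples were separate cultures, so errors given here measure only the spread between these samples, which may be technical. The members were selected on measured values, since the table holds only genes that the authors' comparison of the groups placed at a log2 fold change of 1 or more in size, with a largest false discovery rate (FDR) of 0.0490. Their differences between the groups are therefore a description, and no test of them is given. The level of TMPRSS4 itself was not analysed here, and the knockdown is therefore unchecked.

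BTG2 belongs to the BTG/TOB family, small antiproliferative proteins that bind the CCR4-NOT complex and speed the removal of poly(A) tails from messenger RNA. It was first found as an early response gene. TP53INP1 is a stress-induced protein that promotes cell cycle arrest and apoptosis and binds LC3 proteins in autophagy, and its loss is known from pancreatic cancer. MYCL encodes L-Myc, a paralogue of MYC that pairs with MAX to bind E-box DNA, and it is known as an oncogene of small-cell lung cancer.

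BTG2 and MYCL were each nearest to the other in profile among the genes compared, so the DNA before their start sites is shown side by side. Of the 3 genes, 2 had an entry in the RefSeq promoter table, and TP53INP1 did not. The windows searched were the 250 bases before the RefSeq start on build GRCh38.p14, which is position 203305519 for BTG2 and 39901917 for MYCL. These starts lie 28 and 339 bases inside the GENCODE release 29 genes, whose coordinates are given further on, so the MYCL window lies wholly within the GENCODE gene. Printed are the bases of each window outside its GENCODE exons, 5′ to 3′ on the strand of the gene, at chr1:203305269-203305490 (plus strand) for BTG2 and chr1:39902014-39902140 (minus strand) for MYCL. Capitals mark 3 motifs, searched on both strands. The GC box reads GGGCGG. The CCAAT box is named for its letters. The TATA box was searched as TATAA.
BTG2: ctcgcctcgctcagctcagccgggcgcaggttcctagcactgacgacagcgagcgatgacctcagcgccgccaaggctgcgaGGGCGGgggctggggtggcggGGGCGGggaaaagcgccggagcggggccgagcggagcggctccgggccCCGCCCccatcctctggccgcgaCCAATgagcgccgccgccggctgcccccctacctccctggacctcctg
MYCL: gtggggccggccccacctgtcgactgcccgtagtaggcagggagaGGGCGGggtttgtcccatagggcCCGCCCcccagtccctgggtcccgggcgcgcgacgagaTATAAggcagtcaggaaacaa

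The pair of 250-base windows had G and C at 74.8% of bases for BTG2 and 74.4% for MYCL, against a median of 58% over 35116 promoters of the same length. Lower G and C contents were found in 89.2% of these promoters for BTG2 and in 88.4% for MYCL. BTG2 held 3 GC boxes, at 168, 147 and 99 bases before the RefSeq start, and MYCL held 2, at 178 and 155 bases. A GC box was present in 42.6% of all promoters. BTG2 also held a CCAAT box 76 bases before the start, a motif in 32% of promoters, and MYCL a TATA box 117 bases before it, a motif in 18.9%. BTG2 held 1 copy of the core of the cyclic AMP response element (TGACG), which 21.2% of promoters hold, and MYCL none. Neither window held the E-box CACGTG (6.34% of promoters) or the AP-1 motif (TGAGTCA on either strand, 4.20%). These matches describe letters in a short window and say nothing of binding.

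BTG2 was about 5-fold higher in the shTMPRSS4 libraries, MYCL slightly more than that, and TP53INP1 about 3-fold higher from a far lower level. In all 3 genes every shTMPRSS4 library lay above every control library, as the plot of the level in each library shows. Of the 753 listed genes 73.7% were higher in the shTMPRSS4 libraries and 72.8% were higher with no overlap between the groups, so neither the common direction nor the separation sets the 3 genes apart from the table. The table used here holds 4.98% of the 15117 genes over which the authors adjusted, a number read from the gene with the lowest p-value, as its FDR divided by that p-value. Levels are in FPKM, fragment counts scaled by gene length and library depth as the authors computed them. Fold changes are differences of mean log2 depth-scaled counts, shTMPRSS4 minus control, with a standard error (SE) from 3 against 3 libraries.

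**Figure D1:**
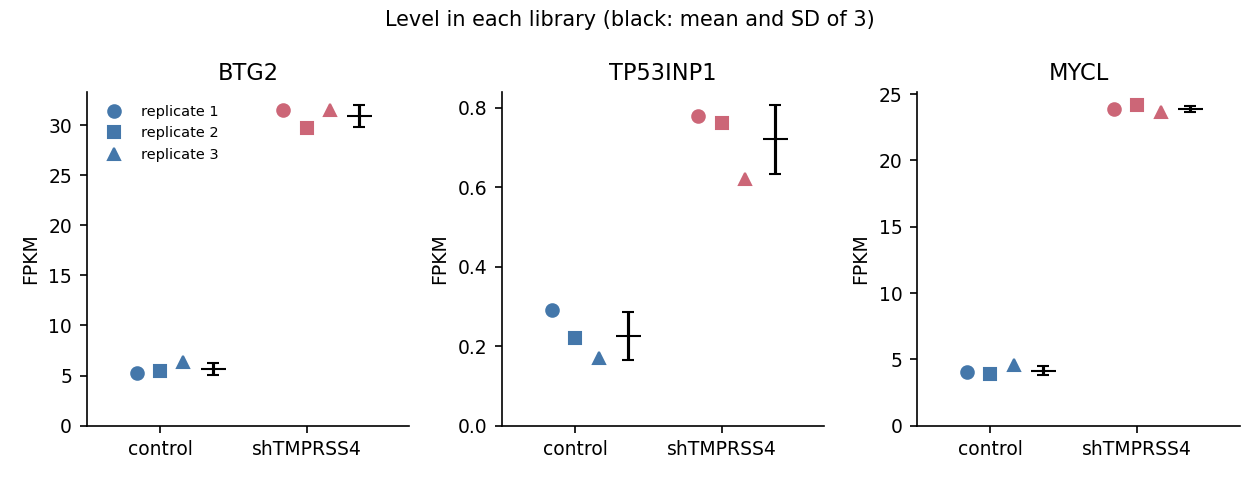
FPKM (y axes, linear from 0, a separate scale for each gene) of BTG2, TP53INP1 and MYCL in 3 control and 3 shTMPRSS4 libraries. Each point is 1 library, and the black bar beside each group is its mean and SD. The lowest shTMPRSS4 value was 4.69 times the highest control value for BTG2, 5.21 times for MYCL and 2.14 times for TP53INP1.

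BTG2 (ENSG00000159388) lies on chromosome 1 at 203305491 to 203309602 on the plus strand (GRCh38, GENCODE release 29). It had 5.27, 5.41 and 6.33 FPKM in control replicates 1, 2 and 3, from 818, 546 and 519 reads. In shTMPRSS4 replicates 1, 2 and 3 it had 31.6, 29.7 and 31.5 FPKM, from 4566, 4058 and 3990 reads. The highest control library was replicate 3 and the groups were far apart. The group means were 5.67 ± 0.576 and 30.9 ± 1.06 FPKM (SD, n = 3 per group), and the log2 fold change was 2.45 ± 0.09 (SE), a 5.46-fold difference. In the authors' deposited table the FDR of BTG2 was 2.21e-143. By its p-value there it was at rank 7 of the 15117 genes.

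MYCL (ENSG00000116990) lies on the same chromosome at 39895426 to 39902256 on the minus strand, far from BTG2. It had 4.01, 3.88 and 4.54 FPKM in the control libraries, from 419, 264 and 251 reads. The shTMPRSS4 libraries had 23.9, 24.1 and 23.7 FPKM, from 2331, 2225 and 2024 reads. As with BTG2, control replicate 3 was the highest control, and the 3 shTMPRSS4 values lay within a ratio of 1.02 of each other. The means were 4.14 ± 0.350 and 23.9 ± 0.235 FPKM (SD, n = 3 per group). The log2 fold change was 2.53 ± 0.07 (SE), a 5.78-fold difference. In the authors' deposited table its FDR was 7.53e-133, and its p-value stood at rank 12 of the 15117 genes.

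TP53INP1 (ENSG00000164938) lies on chromosome 8 at 94925972 to 94949411 on the minus strand. It had 0.29, 0.22 and 0.17 FPKM in the control libraries, from only 94, 47 and 29 reads. In the shTMPRSS4 libraries it had 0.78, 0.76 and 0.62 FPKM, from 235, 215 and 164 reads. Here control replicate 3 was the lowest control, the reverse of its place for the other two genes. The means were 0.227 ± 0.0603 and 0.72 ± 0.0872 FPKM (SD, n = 3 per group), and the log2 fold change was 1.68 ± 0.24 (SE), a 3.2-fold difference. In the authors' deposited table its FDR was 1.88e-07. That put TP53INP1 at rank 1136 of 15117 by p-value, in contrast to ranks 7 and 12.

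Set among the listed genes, BTG2 and MYCL were abundant and TP53INP1 was not. By mean FPKM over the 6 libraries BTG2 was 76th, MYCL 89th and TP53INP1 520th of 753. By the log2 fold change of the authors' deposited table MYCL was 153rd, BTG2 156th and TP53INP1 266th of the 555 higher genes. The median log2 fold change of those 555 genes in the authors' deposited table was 1.62, so TP53INP1 lay near the middle and the other two above it. Between MYCL and BTG2 in that order stood PIEZO2 and IRAK1BP1, with 0.463 ± 0.150 and 0.293 ± 0.0982 FPKM in the shTMPRSS4 libraries (n = 3). MYCL followed the cornified envelope gene SPRR2D, and BTG2 was followed by DPYSL3. TP53INP1 stood between the kinase gene SBK1 and AC005154.5.

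**Figure D2:**
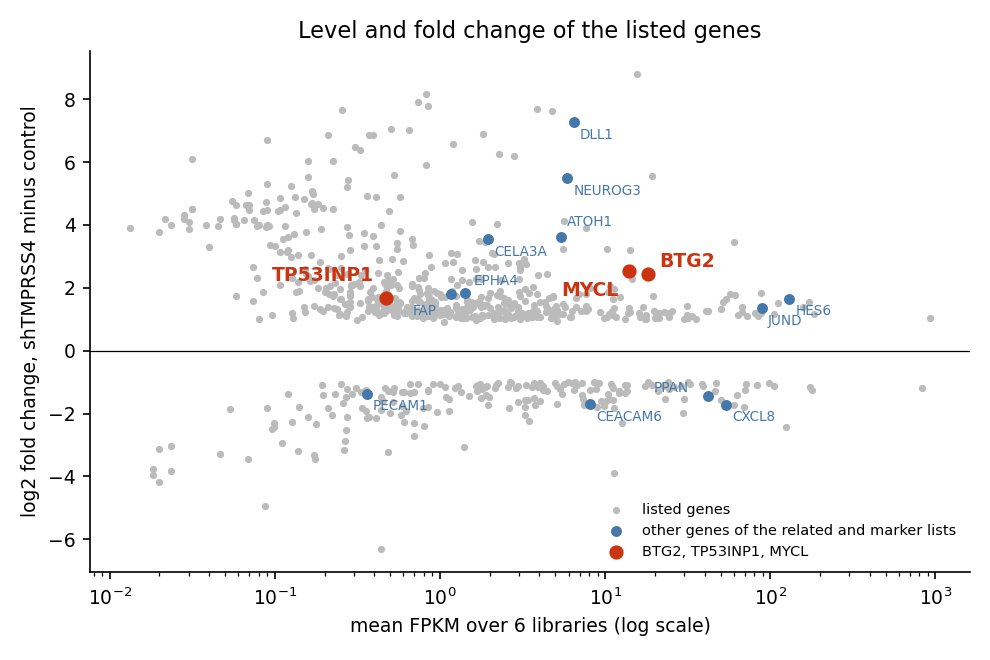
Log2 fold change (y axis, shTMPRSS4 minus control, recovered depth) against mean FPKM over the 6 libraries (x axis, log scale) for the listed genes in grey, the 3 growth control genes in red and other genes of the related and marker lists in blue. BTG2 and MYCL lie together at 2.45 and 2.53, to the right of TP53INP1 at 1.68. For genes with no control reads the plotted value depends on the added 0.5 counts and is no bound.

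TP53INP1 had by far the fewest reads and the largest error of the 3 genes. BTG2 had 1883 control and 12614 shTMPRSS4 reads in all, and MYCL had 934 and 6580. TP53INP1 had 170 and 614. Counting error alone would give log2 fold changes an SE of 0.04 for BTG2, 0.05 for MYCL and 0.13 for TP53INP1, below the observed SE of 0.09, 0.07 and 0.24. The counting SE covers counting error only and may be too small, since reads copied by PCR are not separate molecules.

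Within the control group the SD of depth-scaled counts was 2.46 times its counting error for BTG2, 1.93 times for TP53INP1 and 1.45 times for MYCL. The median over 287 listed genes with a mean of at least 200 counts was 1.99. TP53INP1 did not reach that mean, so this median is for genes with more reads than it had. Within the shTMPRSS4 group the ratio was 2.22 for BTG2, 1.7 for TP53INP1 and 0.455 for MYCL, against a median of 1.90. MYCL in the shTMPRSS4 libraries thus varied by less than its counting error, and with 3 libraries its small SD is itself imprecise. As a coefficient of variation, the control libraries differed by 10.2% for BTG2, 8.49% for MYCL and 26.6% for TP53INP1.

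Ratios of 1 gene to another within a library do not depend on how libraries are scaled. The ratio of BTG2 to MYCL in FPKM was 1.31, 1.39 and 1.39 in the control libraries and 1.32, 1.23 and 1.33 in the shTMPRSS4 libraries. These values overlapped, and the log2 ratio moved by -0.08 ± 0.05 (SE, n = 3 per group) between the groups. The ratio of BTG2 to TP53INP1 was 18.2, 24.6 and 37.2 in the control libraries and 40.5, 39.1 and 50.8 in the shTMPRSS4 libraries. BTG2 thus gained on TP53INP1 by 0.77 ± 0.32 on the log2 scale, and the groups did not overlap, though the gap from 37.2 to 39.1 is small. MYCL gained on TP53INP1 by 0.85 ± 0.30, with 13.8 to 26.7 in the control libraries and 30.6 to 38.2 in the shTMPRSS4 libraries. Both ratios in control replicate 3 rest on 29 reads of TP53INP1.

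The genes most like each member over the 6 libraries were found by the root mean square (RMS) difference of log2(FPKM + 0.1) profiles, each set to 0 at its control mean, among 386 genes averaging 1 FPKM or more. MYCL was the nearest to BTG2 and BTG2 the nearest to MYCL, with an RMS difference of 0.07 on the log2 scale. Next to BTG2 came DPYSL3 (0.13), a cytoskeletal protein of growing axons, RASD1 (0.15), a Ras-related small GTPase, TNFRSF11B (0.16), which encodes osteoprotegerin, and the Notch ligand DLL3 (0.18). MYCL was followed by RASD1 (0.12), DPYSL3 (0.14), the glutathione transferase GSTA1 (0.17) and RGS7 (0.18), a regulator of G protein signalling. GSTA1 has closely related paralogues, so its level depends on how shared reads were assigned. RASD1, GSTA1, DLL3 and RGS7 had control means of 0.833, 0.597, 0.307 and 0.24 FPKM, so they averaged 1 FPKM only through the shTMPRSS4 libraries. The added 0.1 FPKM shrinks their profiles more than those of BTG2 and MYCL. On depth-scaled counts their log2 fold changes were 2.657, 2.649, 2.815 and 3.112, above the 2.45 of BTG2 and the 2.53 of MYCL.

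DPYSL3 had 1.40 ± 0.127 FPKM in the control and 7.55 ± 0.658 in the shTMPRSS4 libraries, and RASD1 0.833 ± 0.101 and 5.29 ± 0.729 (SD, n = 3 per group). The deviations of BTG2 and MYCL from their group means had a Pearson r of 0.86 over the 6 libraries, which share depth and library preparation. By the same measure r was -0.84 for BTG2 with TP53INP1 and -0.65 for MYCL with TP53INP1, so values of this size came with either sign. BTG2 and MYCL were both highest among the controls in replicate 3. Likeness measured over 6 libraries in a table selected for a group difference rests mostly on the size of that difference.

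TP53INP1 was most like PADI2 (RMS difference 0.09), a peptidylarginine deiminase, VAV3 (0.09), a guanine nucleotide exchange factor, FILIP1L (0.11), C6orf226 (0.11) and the carboxypeptidase CPVL (0.11). PADI2 had 1.24 ± 0.119 and 3.24 ± 0.272 FPKM and VAV3 0.977 ± 0.159 and 2.67 ± 0.206 in the control and shTMPRSS4 libraries (n = 3 per group). All 5 had their highest control value in replicate 1, as TP53INP1 did. The added 0.1 FPKM shrinks the profile of TP53INP1 more than theirs. On depth-scaled counts their log2 fold changes were 1.247 to 1.503, below its 1.68.

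**Figure D3:**
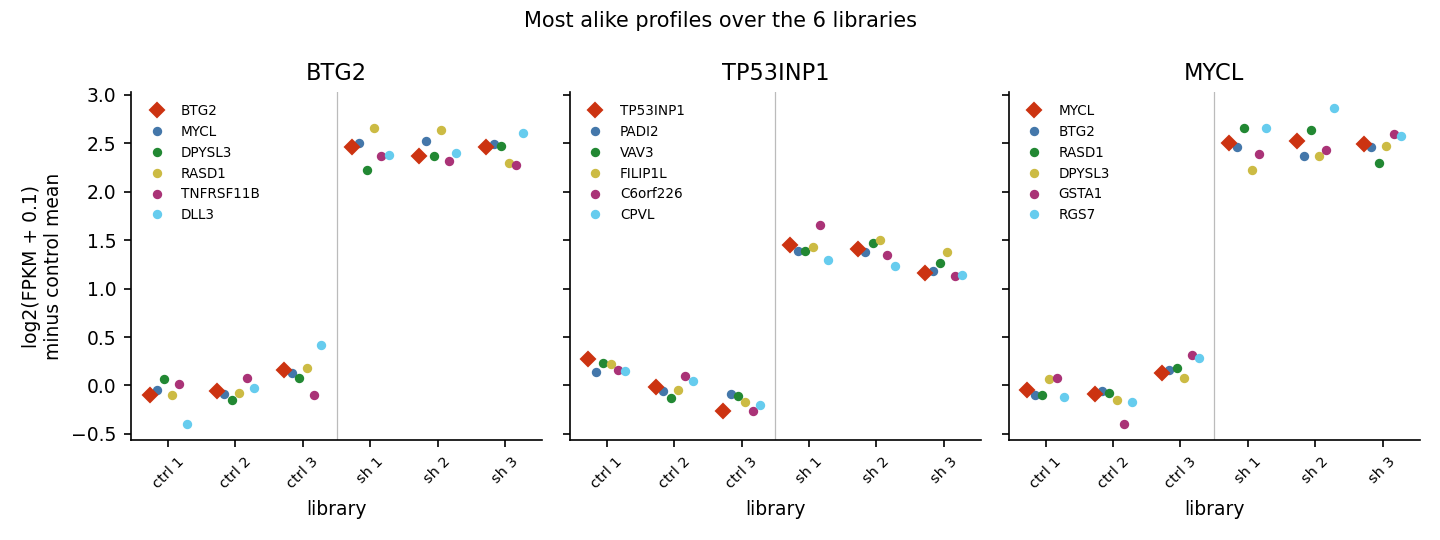
log2(FPKM + 0.1) minus the control mean (y axis) in the 3 control (ctrl) and 3 shTMPRSS4 (sh) libraries for each of the 3 genes (red diamonds) and the 5 genes most like it (circles). Each point is 1 library. BTG2 and MYCL overlay within an RMS difference of 0.07, and the TP53INP1 panel sits lower.

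Partners and pathway genes of the 3 genes were looked up in the table. Besides the members, 4 of 208 genes in 12 lists of growth control were listed (1.92%), 2 higher and 2 lower. Of the 15117 genes over which the authors adjusted, 4.98% were listed. The 208 count every gene of the lists, whether or not it was among the 15117, so the 2 shares have unlike denominators. The difference between the shares was not tested. A single list would hold few genes at a share of 4.98%, and genes outside the table were not analysed here. The 12 lists leave out the 13 lineage factors given further on, of which 6 were listed and all 6 higher. Both the share and the balance of directions therefore depend on which lists are counted. Of 6 BTG/TOB family genes BTG2 alone was listed, and none of 16 genes of the CCR4-NOT and PAN deadenylases and their poly(A)-binding partners, with PRMT1. MYCL alone was listed of 18 genes of the MYC family and its MAX and MLX network, which includes MYC and MYCN. TP53INP1 alone was listed of 15 genes of its family and of LC3-type autophagy. No gene was listed of 8 CDK inhibitors, 18 genes of the G1 to S machinery, 24 proliferation markers, 19 quiescence and FOXO genes or 28 apoptosis regulators.

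Of 22 MYC targets the ribosome biogenesis gene PPAN was listed, and it was lower. It had 40.1, 72.1 and 69.8 FPKM in the control and 34.3, 15.7 and 18.3 in the shTMPRSS4 libraries, with a log2 fold change of -1.45 ± 0.44. Its libraries were uneven in both groups, and PPAN shares reads with an annotated readthrough into P2RY11.

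Beside the lists that follow, 4.98% of the genes over which the authors adjusted were listed, and 73.7% of the listed genes were higher. Each list again counts all its genes, adjusted over or not. Of 27 immediate early genes 2 were listed, both higher. Beside BTG2 this was JUND, a subunit of the AP-1 transcription factor, with 50.3 ± 2.93 FPKM in control and 127 ± 2.35 in shTMPRSS4 libraries (SD, n = 3 per group) and a log2 fold change of 1.34 ± 0.05. Of 18 ERK target and feedback genes, a list that follows the title of the series, 2 were listed, in opposite directions. The ephrin receptor EPHA4 had 0.52 to 0.70 FPKM in control and 2.18 to 2.24 in shTMPRSS4 libraries. CXCL8, the neutrophil chemokine interleukin-8, had 74.7 to 89.0 FPKM in control and 23.1 to 27.7 in shTMPRSS4 libraries. Of 13 lineage factors from tissues where BTG2 or MYCL mark differentiating or neuroendocrine cells, 6 were listed and all 6 were higher, with a median log2 fold change of 3.22. The list was made with earlier results of these data known, and the direction is no independent support. Among them were ATOH1, a secretory lineage factor, with 0.813 ± 0.162 and 9.99 ± 0.225 FPKM, and HES6, a relative of the Notch effectors, with 62.5 ± 4.81 and 197 ± 12.7 FPKM. NEUROG3, which specifies endocrine progenitors, had 0.247 ± 0.00577 and 11.6 ± 0.831 FPKM, the control value from 43 reads. The Notch ligand DLL1 had 26 control reads and 3573 reads in the shTMPRSS4 libraries.

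Annotation in the table links BTG2 and TP53INP1 through negative regulation of cell proliferation. It was noticed after the values were seen. Of 27 listed genes with this term 21 (77.8%) were higher, near the 73.7% of all listed genes. Among the other 25 genes 19 were higher and 6 lower, and 8 of the 12 that averaged 1 FPKM or more were higher. Of all listed genes at that level 68.8% were higher. SOX4, a transcription factor of progenitor cells, had 26.3 ± 1.84 FPKM in control and 77.4 ± 4.37 in shTMPRSS4 libraries, and the stress protein gene NUPR1 4.47 ± 0.279 and 11.3 ± 0.652 (SD, n = 3 per group). NDRG1, a stress and hypoxia responsive gene, went the other way, from 209 ± 4.89 to 39.3 ± 3.84 FPKM, as did the kinase gene PTK2B, from 17.1 ± 0.975 to 7.04 ± 0.313 FPKM. MYCL did not carry this term. It shared with TP53INP1 only the broad term for regulation of transcription, of whose 51 listed genes 39 were higher. The KEGG entry in the table was RNA degradation for BTG2 and HTLV-I infection for TP53INP1.

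Within 1000000 bases of either side, 2 of 30 other protein-coding genes around BTG2 were listed, none of 29 around MYCL and none of 13 around TP53INP1. Numbers this small are near what the 4.98% of the genes over which the authors adjusted would give. The 30, 29 and 13 count every annotated protein-coding gene, adjusted over or not. The neighbours of BTG2 were FMOD, a collagen-binding proteoglycan, at 203340628 to 203351758, and PPFIA4, a liprin of synapses, at 203026498 to 203078740 on chromosome 1. FMOD had 6.62 ± 0.275 FPKM in the control and 13.9 ± 0.736 in the shTMPRSS4 libraries, and PPFIA4 had 1.22 ± 0.0551 and 0.35 ± 0.0557 (SD, n = 3 per group). The pair thus differed from each other in direction. The log2 fold change of FMOD, 1.07 at recovered depth, turned to -0.12 when TMM and to -0.11 when DESeq2 scaled the libraries by the listed genes.

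The length behind each FPKM can be read from the table, since count, FPKM and depth fix it. For BTG2 it was 2712 bases, the annotated length of transcript BTG2-201. For TP53INP1 it was 5653 bases, with 5612 to 5742 over the libraries because FPKM is rounded, beside transcripts of 5631 and 5638 bases. For MYCL it was 1829 bases, while its 4 annotated transcripts have 426, 1688, 1944 and 3256 bases. The FPKM of MYCL, and its ratio to BTG2, therefore depend on the length the authors chose. The fold changes do not, as the implied length of MYCL stayed between 1826 and 1830 bases in every library.

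The annotated transcripts of BTG2 and TP53INP1 shared no 31-base word with those of another gene on either strand. Introns and the reads themselves were not compared. MYCL shared 205 of 5057 such words (4.05%) with its pseudogene MYCLP1 and the antisense gene AL033527.2. MYCL overlaps AL033527.2, and TP53INP1 overlaps the opposite-strand gene NDUFAF6. The labels' protocols describe no step that marks the strand, so reads of MYCL from the words it shares with AL033527.2 may not be told apart from that gene. Whether reads of unspliced NDUFAF6 RNA were counted for TP53INP1 was not tested. Neither overlapping gene was in the table.

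Depth and cell identity were looked at beside these results. The recovered depth was 30200000 to 57200000 reads in the control and 46800000 to 53300000 reads in the shTMPRSS4 libraries, and the listed genes held 1.23% to 1.40% of it. Control replicate 3 had the least depth and is the 1 library whose sample label carries the code L3 in place of L4. Without it the log2 fold change was 2.53 for BTG2, 2.60 for MYCL and 1.48 for TP53INP1. Of 14 markers of pancreatic ductal carcinoma epithelium only CEACAM6 was listed (12.3 ± 0.870 and 3.80 ± 0.125 FPKM), so the table cannot show the labelled cell type. Of other cell types the acinar gene CELA3A (1 of 10 markers, 0.26 to 0.34 FPKM in control and 3.15 to 4.34 in shTMPRSS4 libraries) and 2 of 10 fibroblast and endothelial markers were listed. These were FAP, at 0.40 to 0.58 and 1.55 to 1.95 FPKM, and PECAM1, at 0.38 to 0.66 and 0.15 to 0.24 FPKM. No immune marker of 10 was listed. Their part in the results was not tested. Within this cell line, more or fewer cells with such a transcript cannot be told apart from more or less of it per cell.

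The fold changes depend on what the libraries are scaled to. At recovered depth the median log2 fold change of all listed genes was 1.34. Scaling by the listed genes themselves moved that median by -1.19 with TMM, -1.17 with DESeq2 and -0.72 with the upper quartile. BTG2 then had 1.26, 1.28 and 1.73, and MYCL 1.34, 1.36 and 1.81. TP53INP1 had 0.49, 0.51 and 0.95, with SEs of 0.243, 0.22 and 0.237, large beside the first 2 values. All 3 genes stayed on the higher side under these scalings, and BTG2 and MYCL stayed above TP53INP1, as the plot of the fold change under each setting shows.

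**Figure D4:**
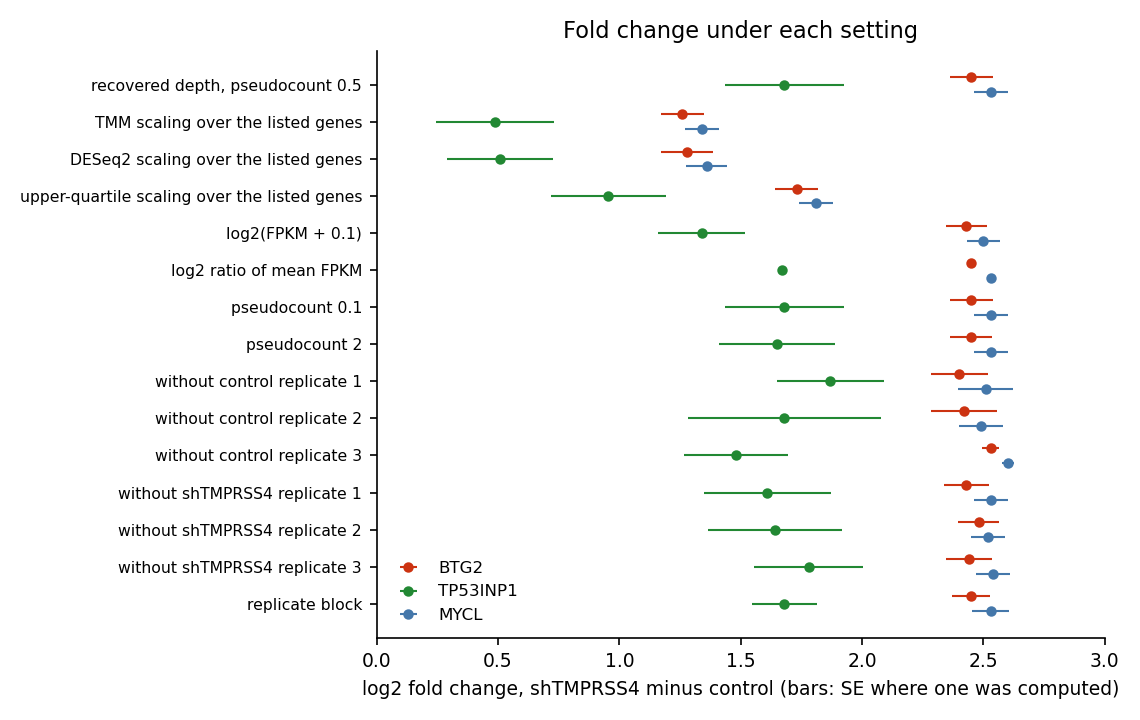
Log2 fold change (x axis, shTMPRSS4 minus control) of BTG2 (red), TP53INP1 (green) and MYCL (blue) under each setting (y axis). Points are estimates and bars are the SE where one was computed. Scaling by the listed genes lowers all 3, for TP53INP1 to 0.49 with TMM, and leaving out any 1 library keeps BTG2 between 2.40 and 2.53.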

How the data were processed

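RNA of 3 control and 3 shTMPRSS4 samples was enriched with oligo(dT) beads and sequenced on an Illumina instrument, per the labels' protocols. Per the file headers, the deposited table gives a read count and an FPKM value per gene and library. It also gives the authors' log2 fold change, p-value and FDR. Per the submitters' processing notes, Bowtie 0.12.2 was used, and mouse builds (mm 8 and mm 9) are named although the gene identifiers are human. The annotation, counter and test of the authors were not given in the sources used here. This table is a selection on the outcome, and a group mean of 0 was set to 0.001 in it.

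Relative depth came from the ratio of count to FPKM over 159 genes with at least 200 counts, and absolute depth from 12 genes with 1 transcript in GENCODE release 29. Fold changes used log2(depth-scaled count + 0.5). The calculation was run on simulated counts with most genes unchanged, unlike the listed genes, which checks its arithmetic only. TMM and upper-quartile factors came from edgeR 4.0.16 and size factors from DESeq2 1.42.0 (R 4.3.3), as alternatives only, and no test was run. Named genes were the 3 members, listed genes of 17 lists (the 4 with the lowest FDR where a list had more), the 5 most alike genes averaging 1 FPKM or more, and neighbours in fold change. SOX4, NUPR1, NDRG1, PTK2B, FMOD and PPFIA4 were chosen after their values were seen. Further lists are not reported here. Older symbols in the lists were matched through RefSeq synonyms. The members and lists were chosen with earlier results of these data known.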

Additional observations from a re-analysis of the deposited data

How the results depend on the processing

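No setting turned the direction of BTG2, TP53INP1 or MYCL, and for each gene 11 of 14 alternatives moved the log2 fold change by less than the SD of the control libraries, the larger of the group SDs. For TP53INP1 the log2(FPKM + 0.1) scale gave 1.34, a shift within the control SD but beyond that of the shTMPRSS4 libraries. The 3 that moved it further scale the libraries by the listed genes, which are selected. The other 11 keep the authors' depth scaling, so their number does not measure how far the scaling matters. Among them the replicate block cannot change the estimate, since each group has 1 library per replicate number. TMM gave 1.26 for BTG2, 0.488 ± 0.243 (SE) for TP53INP1 and 1.34 for MYCL. DESeq2 size factors gave 1.28, 0.508 and 1.36, and upper-quartile scaling 1.73, 0.955 and 1.81. The higher listed genes, 555 of 753, fell to 454 (60.3%) with TMM and 462 (61.4%) with DESeq2. Of genes averaging 1 FPKM or more, 267 (68.8%) were higher, a lower share than the 73.7% of all listed genes. Leaving out 1 library at a time gave 2.40 to 2.53 for BTG2, 1.48 to 1.87 for TP53INP1 and 2.49 to 2.60 for MYCL. The ratio of SD to counting error of MYCL in the shTMPRSS4 libraries, 0.455, became 0.689 with TMM.

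With the replicate number as a block the log2 fold changes were 2.45 ± 0.08, 1.68 ± 0.13 and 2.53 ± 0.08 (SE) for BTG2, TP53INP1 and MYCL. The block took the SE from 0.0875 to 0.0777 for BTG2, from 0.245 to 0.133 for TP53INP1 and from 0.0698 to 0.077 for MYCL. The FPKM of TP53INP1 fell with the replicate number in both groups. Same-numbered samples deviated with correlations of 0.015, 0.034 and -0.096. Whether they shared a culture or a batch was not tested. The depth limits TP53INP1 most, with 29 to 94 reads in a control library.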
